A study of Mus musculus with 6 samples.

Results

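The Kruppel-like factors (KLFs) are transcription factors that bind GC-rich and CACCC elements of promoters through a shared zinc-finger domain at the C terminus, and that differ in the N-terminal region with which they recruit partners. This account covers 10 of them, Klf2, Klf3, Klf4, Klf5, Klf6, Klf7, Klf9, Klf10, Klf13 and Klf15, out of the 18069 genes that the array's probes name. Their 12 probes were taken as the ones annotated with a single gene symbol that is one of the 10. Klf3 was picked because its signal was among those most lowered in the mutant cells, so its difference between genotypes is given as a description, without a test.

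The arrays measured total RNA of mouse embryonic fibroblasts, primary cells grown out of embryos. In 3 cultures, named C4, C3 and B1, the Ing1 locus carried an inserted gene trap cassette that inactivates it; the other 3 cultures, H2, H3 and I2, came from wild-type littermates. All were early-passage cells with no treatment named, each culture from its own embryo and hybridised to its own CodeLink one-colour array, and the labels name neither strain nor embryonic age. ING1 is a chromatin reader that works with the SIN3 and histone deacetylase corepressor complex. The design asks which genes change when it is missing.

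KLFs are usually grouped by partner. KLF2, KLF4, KLF5, KLF6 and KLF7 mostly activate their targets, KLF3 recruits the corepressor CtBP and represses, and KLF9, KLF10 and KLF13 recruit SIN3 with histone deacetylases. KLF15 is a metabolic regulator induced by glucocorticoids. In fibroblasts several KLFs, among them Klf2, Klf4, Klf6 and Klf10, respond within minutes to hours to serum, growth factors or TGF-beta, and KLF4 is one of the factors used to reprogram fibroblasts to pluripotency.

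The Ing1 probe checked the labels first. Deficient cultures read 1.38 (C4), 0.93 (C3) and 1.39 (B1), whereas wild-type cultures read 11.7 (H2), 11.4 (H3) and 11.1 (I2), in units of the array's median signal. The log2 difference, deficient minus wild type as everywhere here, was -3.23 ± 0.19 (SE, 3 arrays per genotype; limma, Benjamini-Hochberg adjusted p = 0.000286). All 12 fibroblast markers examined were measured in both genotypes, with summed signals of 1152 to 1277 in deficient and 995 to 1241 in wild-type cells. Between 55.5% and 62.1% of an array's transcript probes carried the scanner's good flag, which marks a spot above background. One wild-type culture, H3, stood apart. On the first principal component of all tested probes, with 55.83% of the variance, it lay at 5.84, between the other wild-type cultures at 34.6 and 52.5 and the deficient cultures at -39.2 to -26.0. Differences are therefore given with and without H3 where it moves them.

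Promoters are shown for Klf3 and Klf2, the genes with the lowest and the highest difference among those of the 10 that were tested. RefSeq's promoter table (GRCm38.p6, 250 bases before to 50 bases after a gene's start) held 8 of the 10 genes. The CACCC element, to which KLF zinc fingers bind, was searched on both strands. Beside it stood the SP1-type GC box GGGCGG and a MEF2-type pattern (CTA and TAG with any 4 bases between). The middle bases of the MEF2-type pattern were left free, so its matches were not narrowed to sites that MEF2 factors bind. Matches of different patterns could share bases. The 250 bases upstream of each start are printed 5′ to 3′ on the plus strand, with CACCC or its reverse GGGTG in capitals, and in Klf2 also the MEF2-type match.
Klf3, chr5:64803271-64803520: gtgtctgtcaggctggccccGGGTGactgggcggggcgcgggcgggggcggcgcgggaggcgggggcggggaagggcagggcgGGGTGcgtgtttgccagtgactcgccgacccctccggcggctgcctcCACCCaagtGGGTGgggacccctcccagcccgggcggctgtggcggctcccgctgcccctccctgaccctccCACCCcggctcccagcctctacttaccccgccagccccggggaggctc
Klf2, chr8:72318812-72319061: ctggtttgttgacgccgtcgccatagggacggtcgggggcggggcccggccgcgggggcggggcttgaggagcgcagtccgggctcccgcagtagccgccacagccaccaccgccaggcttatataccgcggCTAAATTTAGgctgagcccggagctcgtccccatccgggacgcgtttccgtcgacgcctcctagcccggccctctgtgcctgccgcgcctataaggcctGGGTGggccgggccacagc

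The Klf3 window held 5 CACCC matches, a number reached or passed by 1.02% of the 32851 promoters of the table, whereas 57.5% hold at least 1. It also held 6 GC boxes, which 35.7% of all promoters hold at least once. The Klf2 promoter held 1 CACCC match and 1 match to the MEF2-type pattern. That pattern occurs in 3.69% of all promoters and in none of the other 7 KLF promoters that were searched. CACCC was found in 6 of the 8 KLF promoters and the GC box in 7, in windows of 58.3% to 76.7% G and C against a median of 52.7% over the table. These counts describe letters in the windows, and binding was not measured.

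Of the KLF genes 9 were bright enough to measure. Klf3, whose value chose the set, was lower in all Ing1-deficient cultures, 4.75-fold on average. Of the other 8 genes, Klf5 fell past an adjusted p of 0.05 over all 19575 tested probes and 7 did not pass. Over all tested probes 6.57% passed in either direction, 1.63% lower and 4.94% higher, and since the family was put together with results known, nothing is read from its count. In limma, 5137 of the 19575 tested probes had an unadjusted p under 0.05. Every unadjusted count given here stands beside that number. Signs over the 9 genes were mixed, with 5 lower and 4 higher. Their median log2 difference was -0.27 beside 0.02 over all probes. Klf3, lower by the choice of the set, is counted among the 5 and in that median. Nothing is therefore read from either value. The signals of the 3 deficient and the 3 wild-type cultures did not overlap for 4 genes. These were Klf3, Klf5, Klf9 and Klf13, of which Klf3 chose the set by its value. Of all tested probes 31.2% had such groups. By the methods' t-test, unadjusted with a ratio over 2 or under 0.5, the same gene of the 8 was selected, beside 3.1% of all tested probes. Each culture is a bulk sample, so fewer cells of a kind and less RNA per cell cannot be told apart. An array signal depends on the probe, so levels are compared only between cultures, never between genes.

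**Figure D1:**
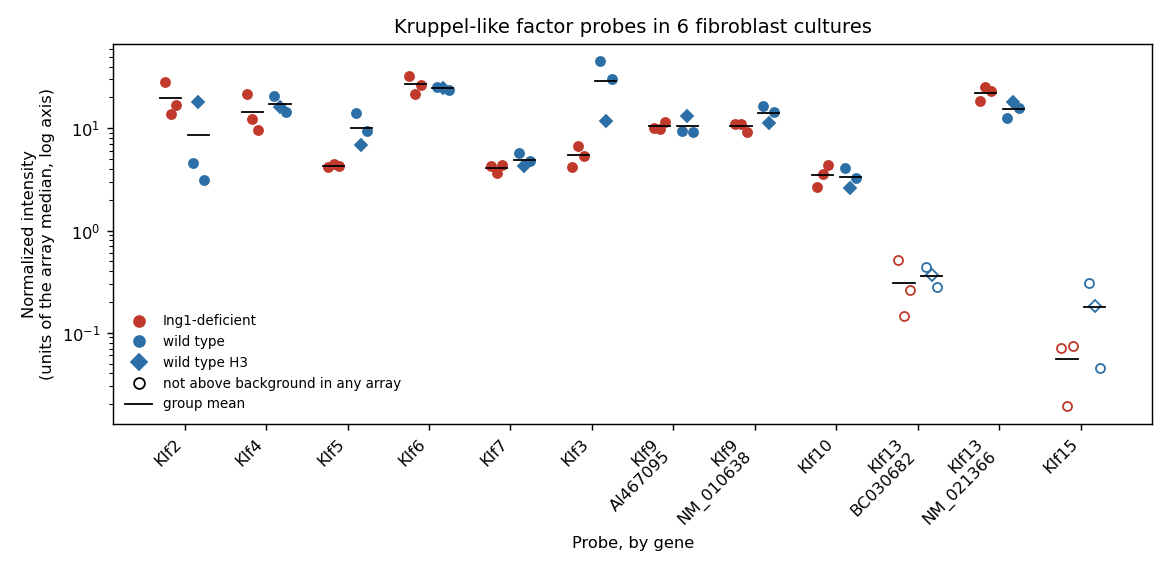
Normalized intensity of the 12 KLF probes (vertical log axis, units of the array median) in 3 Ing1-deficient and 3 wild-type cultures; each point is 1 array, diamonds mark H3, bars are group means and open symbols mark probes not above background on any array. Klf3 and Klf5 lie lower in all deficient cultures, and for Klf2 the wild-type H3 lies among the deficient cultures.

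Klf3, the CtBP-recruiting repressor of the set, had the largest difference. Deficient cultures read 4.16 (C4), 6.77 (C3) and 5.36 (B1), whereas wild-type cultures read 45.2 (H2), 11.7 (H3) and 30.6 (I2). Every deficient culture was below every wild-type culture, and the wild-type cultures were far more spread than the deficient ones (29.2 ± 16.8 against 5.43 ± 1.30, SD, n = 3 each). On the log2 scale the difference was -2.25 ± 0.43 (SE), 4.75-fold. Leaving H3 out gave -2.80 and leaving H2 out gave -1.83, the outer values when each culture was left out in turn.

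The 5 genes whose log2 signals followed Klf3 most closely over the 6 cultures were Reep3 (Pearson r = 0.997), Gadd45b (0.996), Ppp6r2 (0.995), Dnal1 (0.990) and Marchf6 (0.990), among 1174 probes that were good on all arrays and varied with an SD of at least 0.5. Gadd45b, a stress-induced gene of the growth arrest and DNA damage group, read 9.76, 13.8 and 11.5 in C4, C3 and B1 against 70.9, 20.8 and 41.9 in H2, H3 and I2. In both Klf3 and Gadd45b the order of the cultures was H2, I2, H3, C3, B1, C4 from high to low. The cultures had the same order on the first principal component of all tested probes. Gadd45b was picked for its r with Klf3, so the shared order supports nothing. Second probes of Reep3, Ppp6r2 and Dnal1 differed the other way between genotypes, by 0.93, 0.23 and 0.24 against -1.16, -1.09 and -1.28 for the probes that followed Klf3, so those 3 matches belong to 1 probe of the gene. Klf5 stood at place 14 of the 1174 (r = 0.984). These r values are descriptions over 6 shared arrays that include both genotypes.

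Of Klf3's closest relatives, Klf12, another CtBP-recruiting repressor, read 1.32 to 1.41 in deficient and 1.61 to 1.91 in wild-type cells. Its difference of -0.38 ± 0.15 did not pass (limma, adjusted p = 0.144), although its groups did not overlap. Klf8, which KLF3 is known to repress, had no good flag on any array. Of 4 genes listed as repressed by KLF3, only Lgals3, which codes for galectin-3, was bright enough to test, and it differed by -0.01 ± 0.17 (adjusted p = 0.975).

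Among the activators, Klf5, a factor linked to proliferation and to the growth response of mesenchymal cells, fell. Its signal was 4.14, 4.50 and 4.29 in C4, C3 and B1, and 14.2, 6.88 and 9.39 in H2, H3 and I2. The deficient cultures were nearly alike and all lay below the lowest wild-type culture, H3. The log2 difference was -1.17 ± 0.24 (SE; 2.25-fold; limma, adjusted p = 0.0330). The order of the wild-type cultures, H2 above I2 above H3, was the one seen in Klf3 and on the first principal component of all tested probes. Without H3 the difference was -1.42 (adjusted p = 0.00665). The call ended when C4, C3, B1, H2 or I2 was left out, with differences of -1.20 to -0.90 and adjusted p from 0.0655 to 0.129.

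Klf2, an activator known for holding endothelial cells and T cells quiescent, had the highest difference of the set but did not pass. Its signal was 28.2, 13.9 and 16.7 in C4, C3 and B1, and 4.57, 17.9 and 3.14 in H2, H3 and I2. H3 lay within the deficient range, while H2 and I2 lay well below it. The difference was 1.56 ± 0.56 (SE; limma, adjusted p = 0.120). Without H3 it was 2.31 ± 0.31 (adjusted p = 0.00534). Leaving out I2 instead gave 1.05, the smallest value of the 6. The Klf2 signals ran against those of Klf3 over the arrays (r = -0.914, a description). From the highest r down, Klf2 stood at place 747 of the 1174 ranked probes. Many probes thus had an r still lower, and nothing particular to Klf2 is read from it.

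Klf4, which shares its inducers with Klf2, showed no such split. It read 21.7, 12.3 and 9.57 in C4, C3 and B1, and 20.9, 16.3 and 14.5 in H2, H3 and I2. The groups overlapped across most of their range, and the difference was -0.31 ± 0.29 (limma, adjusted p = 0.533). Left-out arrays moved it between -0.65, without C4, and -0.06, without B1.

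Klf6, an early-response activator of wound repair and TGF-beta genes, was the most even of the set in wild-type cells, at 25.3, 25.0 and 23.5 in H2, H3 and I2. The deficient cultures C4, C3 and B1 read 32.4, 21.8 and 26.7 and lay on both sides of them. Its difference of 0.11 ± 0.18 did not pass (limma, adjusted p = 0.732) and turned negative under quantile normalization and without C4. Klf7, a factor best known from neurons and adipocytes, read 4.31, 3.61 and 4.34 in C4, C3 and B1 against 5.79, 4.24 and 4.81 in H2, H3 and I2. Its groups overlapped at H3, and the difference was -0.27 ± 0.17 (adjusted p = 0.359).

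**Figure D2:**
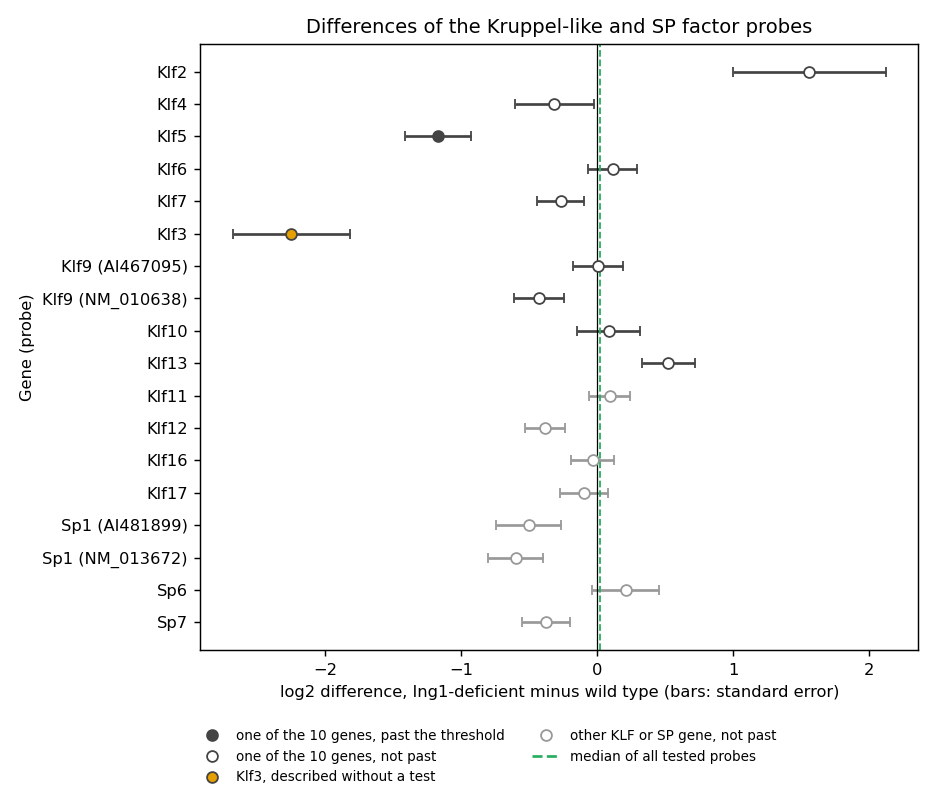
Log2 difference (Ing1-deficient minus wild type, horizontal axis) of each tested KLF and SP probe, with standard errors; black symbols passed the adjusted threshold, the orange one is Klf3, described without a test, and the dashed line is the median of all tested probes, 0.02. Klf3 at -2.25 and Klf5 at -1.17 lie lowest, Klf2 at 1.56 lies highest with the widest error, and the others lie within 0.6 of 0.

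Of the SIN3-recruiting group, Klf13, known for driving late Ccl5 expression in T cells, read 18.3, 25.3 and 22.9 in C4, C3 and B1 against 12.6, 18.0 and 15.8 in H2, H3 and I2. All deficient cultures lay above all wild-type cultures, by as little as the step from 18.0 to 18.3. The difference of 0.52 ± 0.19 did not pass (limma, adjusted p = 0.129), nor did it without H3, at 0.64 (adjusted p = 0.0721). A second Klf13 probe was not above background on any array and was not tested.

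Klf9, a glucocorticoid- and clock-driven factor, was measured by a pair of probes that disagreed. The probe for NM_010638 read 10.9, 11.1 and 9.20 in C4, C3 and B1 and 16.4, 11.4 and 14.5 in H2, H3 and I2. Its groups did not overlap, and it differed by -0.43 ± 0.18 (limma, adjusted p = 0.176). The probe for AI467095 read 9.90 in C3 and 11.6 in B1, with C4 just above C3, and 9.40, 13.1 and 9.17 in H2, H3 and I2. There H3 was the highest culture, the groups overlapped, and the difference was 0.01 ± 0.18 (adjusted p = 0.985). The mean of both probes differed by -0.21.

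Klf10, first described as an early gene induced by TGF-beta, read 2.64, 3.55 and 4.38 in C4, C3 and B1 and 4.05, 2.62 and 3.23 in H2, H3 and I2. The cultures of both genotypes spanned nearly the same range, and the difference was 0.09 ± 0.23 (limma, adjusted p = 0.855). Without H3 it was -0.07. Klf15 was flagged as not above background on all 6 arrays, with signals of 0.019 to 0.304, and was not tested.

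**Figure D3:**
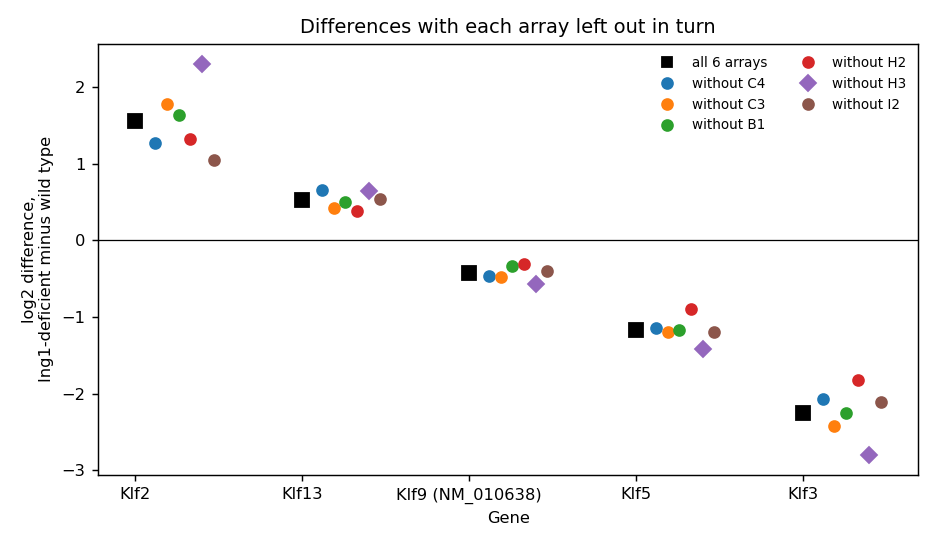
Log2 difference (vertical axis, Ing1-deficient minus wild type) of 5 KLF genes with all 6 arrays (squares) and with each array left out in turn (coloured points, H3 as a diamond). Klf9 is drawn by its NM_010638 probe. Leaving out H3 gave the value farthest from 0 for Klf2, Klf9, Klf5 and Klf3, and no omission turned a sign among the probes drawn. The AI467095 probe of Klf9, not drawn, turned negative without B1, H2 or I2.

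None of the rest of the family passed. Of 7 further KLF genes, 6 were on the array and 4 were tested, and limma called 0 (1 at an unadjusted p under 0.05, Klf12). Klf11, the relative of Klf10, differed by 0.09 ± 0.15 (adjusted p = 0.751). Klf1, the erythroid factor, had no good flag. Of the SP factors, which bind the same GC boxes, 3 were tested and 0 passed limma's adjusted threshold (0 at an unadjusted p under 0.05 by the brightest probe of each). The osteoblast factor Sp7 differed by -0.37 ± 0.18 (adjusted p = 0.218). The broadly expressed Sp1 differed by -0.50 ± 0.24 (adjusted p = 0.222) with its brighter probe and by -0.60 ± 0.20 (adjusted p = 0.103) with the other.

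Lists of genes that act with the KLFs, or before or after them, were then counted; they too were written with earlier results of these arrays known. Of their 95 tested genes 9 passed, 9.47% beside the 6.57% of all tested probes, and nothing particular to the lists is read from it. Of 11 tested corepressors and coactivators, 2 rose and 9 did not pass, with a list median of 0.25. Hdac1 codes for a deacetylase that SIN3-recruiting KLFs and ING1 share. It read 22.9, 18.8 and 20.1 in C4, C3 and B1 and 7.26, 8.76 and 7.48 in H2, H3 and I2. The groups were far apart and H3 lay with the other wild-type cultures, and the difference was 1.40 ± 0.16 (limma, adjusted p = 0.00935). The call ended without B1, H2 or I2, at 1.34 to 1.41. Hdac2, Sin3a, Sin3b and Sap30 of the same list, singled out after their values were seen, did not pass. Hdac2 differed by 0.0008 ± 0.15 (limma, adjusted p = 0.996) and Sin3a by 0.10 ± 0.17 (adjusted p = 0.757). Sin3b differed by 0.54 ± 0.25 (adjusted p = 0.211) and Sap30 by -0.06 ± 0.28 (adjusted p = 0.922). Fhl3, a LIM-domain cofactor of KLF3, read 1.22, 1.37 and 1.81 in C4, C3 and B1 and 0.862, 0.757 and 0.696 in H2, H3 and I2. It rose by 0.91 ± 0.19 (adjusted p = 0.0324), and this call held only without H3 among the 6 omissions, the other values being 0.75 to 1.04. The CtBP genes Ctbp1 (0.33 ± 0.17, adjusted p = 0.263) and Ctbp2 (0.45 ± 0.23, adjusted p = 0.246), partners of KLF3 singled out after their values were seen, did not pass.

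Of 13 tested targets of the activating KLFs, 2 rose, 0 fell and 11 did not pass, with a median of 0.04. This list and the target lists that follow were not split by the direction in which a KLF moves a gene. No KLF activity is read from their counts or medians. Ccl2, the monocyte chemokine, read 65.2, 70.5 and 63.5 in C4, C3 and B1 and 8.99, 37.9 and 13.5 in H2, H3 and I2. Here too H3 was the wild-type culture closest to the deficient ones, and the difference was 2.00 ± 0.43 (limma, adjusted p = 0.0350). Ccnd1, the cyclin of the G1 phase, rose by 1.02 ± 0.24 (adjusted p = 0.0428) from a weak probe that was not above background in H2. Without H3 both calls held, Ccl2 at 2.59 and Ccnd1 at 1.07. The Ccl2 and Ccnd1 calls ended when C4, C3, B1, H2 or I2 was left out, Ccl2 at 1.55 to 2.03 and Ccnd1 at 0.78 to 1.23. Pdgfa, a growth factor gene that KLF5 activates, was singled out after its values were seen. It read 14.1, 15.1 and 14.5 in C4, C3 and B1 and 32.3, 16.8 and 27.1 in H2, H3 and I2, and did not pass (-0.75 ± 0.23, adjusted p = 0.0836).

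Of 5 tested targets of the SIN3-recruiting KLFs, 1 fell and 4 did not pass. That gene, Ccl5, the T-cell chemokine tied to KLF13, read 1.79, 1.94 and 1.44 in H2, H3 and I2 and was not above background in C4, C3 or B1. All deficient signals lay under the floor of 0.570 and were set to it. The log2 difference was then -1.58 ± 0.16 (SE; limma, adjusted p = 0.00630). Before flooring, the means were 1.72 in wild-type and 0.288 in deficient cultures. The wild-type mean was 3.78-fold the lowest good signal on the deficient arrays. That lowest signal comes from other spots and is not a detection limit of the Ccl5 probe, so the size of the fall is uncertain. The call ended without B1 (adjusted p = 0.0645). The list's median was -1.20, the value of the glucocorticoid receptor gene Nr3c1, singled out after its values were seen, whose weak probe was not above background in C4 and B1.

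For KLF15, limma called 0 of 5 tested targets (2 at an unadjusted p under 0.05). Fbxo32, a muscle ubiquitin ligase, differed by -1.39 ± 0.41 (adjusted p = 0.0729) and was not above background in C4. Ccn2, a matrix gene that KLF15 holds down in heart cells, differed by 0.43 ± 0.17 (adjusted p = 0.144).

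The inducers of Klf2, Klf4, Klf6 and Klf10 were examined the same way. Of 19 immediate early genes, the class with which these KLFs are switched on, limma called 0 (5 at an unadjusted p under 0.05), with a median of 0.19. Egr2 read 7.95, 1.78 and 5.38 in C4, C3 and B1 and 0.792, 2.08 and 0.364 in H2, H3 and I2, the last not above background. H3 lay above C3, as it did for Klf2, and the difference was 2.11 ± 0.58 (adjusted p = 0.0641). Srf, whose protein drives this class, differed by 0.75 ± 0.22 (adjusted p = 0.0707). In the MEF2 and ERK5 pathway, which induces Klf2 and Klf4, limma called 0 of 7 genes (1 at an unadjusted p under 0.05). Closest to the threshold were Foxo1, a factor known to induce Klf2 in lymphocytes (-0.39 ± 0.17, adjusted p = 0.176), and Mef2d (-0.49 ± 0.23, adjusted p = 0.223).

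Of 11 TGF-beta early genes, 2 rose, 1 fell and 8 did not pass, with a median of -0.07. The matrix gene Tgfbi rose by 0.95 ± 0.16 (limma, adjusted p = 0.0220), from 6.88, 8.01 and 6.69 in H2, H3 and I2 to 14.9, 12.6 and 14.1 in C4, C3 and B1. Pmepa1, a feedback inhibitor of TGF-beta signalling, rose by 0.82 ± 0.19 (adjusted p = 0.0388). Id4, an inhibitor of helix-loop-helix factors, fell by 1.04 on the log2 scale (SE 0.21; adjusted p = 0.0312), with C4 and C3 not above background. Tgfbi also passed without C3 or H3 (1.02 and 1.03), and Pmepa1 and Id4 only without H3 (0.95 and -1.26). Under the other omissions the values were 0.90 to 0.93 for Tgfbi, 0.64 to 0.86 for Pmepa1 and -1.12 to -0.91 for Id4.

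Of 14 glucocorticoid and clock genes, the setting of Klf9 and Klf15, 1 rose and 13 did not pass, with a median of -0.04. Arntl, the clock activator also called Bmal1, read 4.23, 4.34 and 3.64 in C4, C3 and B1 and 1.78, 2.26 and 1.67 in H2, H3 and I2. The groups did not overlap, and the difference was 1.10 ± 0.17 (limma, adjusted p = 0.0199). It passed without C3 or H3 and not without C4, B1, H2 or I2 (1.01 to 1.18). Of 7 ubiquitin ligases of KLF proteins, limma called 0 (2 at an unadjusted p under 0.05). Those were Smurf1 (-0.90 ± 0.32, adjusted p = 0.117) and Smurf2 (-0.77 ± 0.28, adjusted p = 0.120), both highest in H2.

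**Figure D4:**
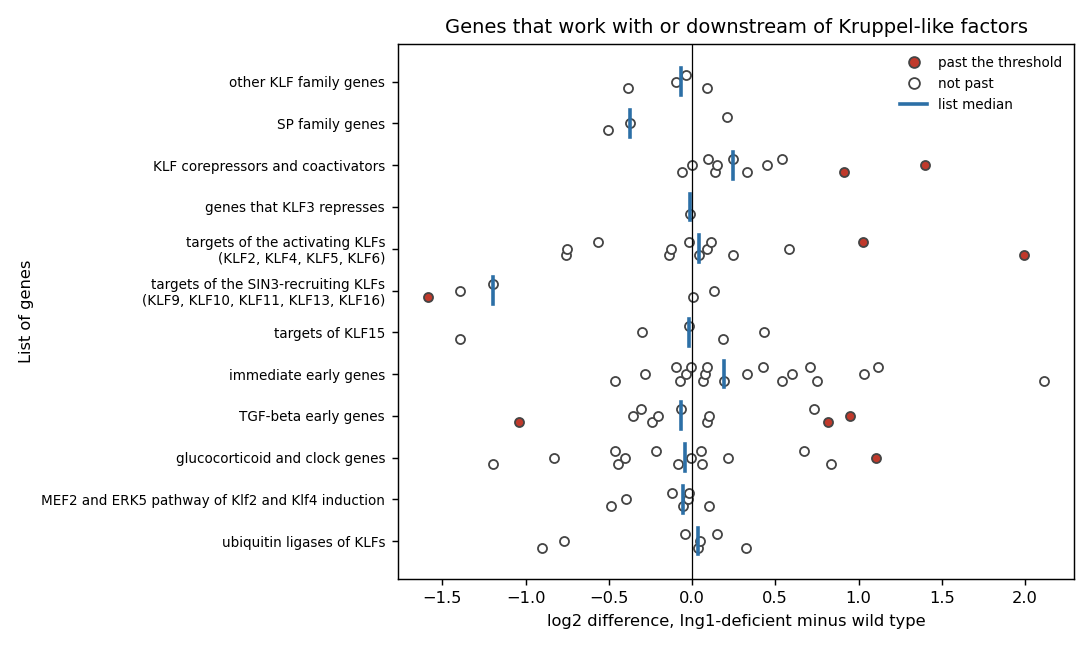
Log2 difference (horizontal axis, Ing1-deficient minus wild type) of every tested gene in 12 lists of KLF relatives, partners, targets and inducers, 1 point a gene, with list medians as bars; red points passed the adjusted threshold. Between 0 and 3 genes passed in a list, and a gene in more than 1 list is drawn in each.

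Several KLFs are strongly expressed in other cell types that a fibroblast culture can hold. Of 12 endothelial markers 11 were on the array, and Pecam1, Cdh5, Cldn5 and Flt1 had no good flag. Limma called 0 of the 5 tested (0 at an unadjusted p under 0.05). The summed signal of the 11 on the array was 11.9 to 12.4 in deficient and 10.8 to 12.4 in wild-type cells. Of 9 tested macrophage markers, 3 (C1qa, C1qb and Mrc1) were higher past the threshold and 6 did not pass. Limma gave 7 of the 9 an unadjusted p under 0.05, beside 5137 of all 19575 tested probes. The median difference of the 9 was 1.20. Ptprc had no good flag, and Mrc1 was not above background in H2 or H3. Summed, the macrophage markers on the array read 56.1 (C4), 173 (C3) and 91.1 (B1) beside 61.1 (H2), 38.8 (H3) and 25.8 (I2). H2 thus lay above C4. None of the 3 passed without B1, H2 or I2 (C1qa 1.67 to 2.34, C1qb 1.72 to 2.03, Mrc1 1.72 to 1.96). C1qa also did not pass without C4 (2.40) or C3 (1.49), nor Mrc1 without C4 (2.02). C3, the culture with most macrophage signal, had the lowest Klf2 of the deficient cultures and the highest Klf3. The part of macrophages in the KLF differences was not tested.

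Of 8 smooth muscle markers, limma called 2 higher (5 at an unadjusted p under 0.05), with a median of 0.83. Summed, they read 737 to 802 in deficient cells and 729, 435 and 716 in H2, H3 and I2. H3 was thus lowest here. Actg2 (1.25) passed only without C3 (1.38) or H3 (1.02) among the 6 omissions, otherwise 1.13 to 1.45, and Myh11 (1.60) in none (1.26 to 1.96); their part in the KLF differences was not tested. For the rest, limma called 0 of 1 erythroid, 0 of 5 epithelial and 0 of 4 adipocyte markers (0, 0 and 2 at an unadjusted p under 0.05). Signals were summed over all markers of a list on the array, tested or not. In deficient and wild-type cells the sums were 37.4 to 44.4 and 39.8 to 41.1 for erythroid markers. They were 7.24 to 9.78 and 7.5 to 10.6 for epithelial, and 38.9 to 47.2 and 38.8 to 59.9 for adipocyte markers. Most of the erythroid sum was Tal1, at 35.9 to 43.0 over the arrays. Klf1, Epor, Slc4a1 and Gata1 had no good flag, nor had Esrp1 of the epithelial and Adipoq and Lep of the adipocyte list. Of the fibroblast markers, Lum (0.84) and Thy1 (0.89) rose and the other 10 did not pass. Limma gave 5 of the 12 an unadjusted p under 0.05, and their median difference was 0.26. With 1 culture left out, Lum passed only without H3 (1.03, otherwise 0.73 to 0.87) and Thy1 in no case (0.71 to 1.10).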

How the data were processed

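The authors deposited 1 scanner table per array, in which CodeLink Expression Analysis (version 4.1.0.29054, per the file headers) gives each spot's mean minus local background, divided by the array's median, with a quality flag. These normalized intensity values were used as deposited; the series value table holds the same intensity values. Scanner columns use decimal commas and were read as such (unit other in the deposited tables). Values under a floor of 0.570, the median over arrays of the 1st percentile of good probes, were set to it, and log2 was taken here; the authors also took log2, per the labels, and applied a t-test, called here the methods' t-test. Of 34967 transcript probes, 19575 were tested, those flagged good throughout the 3 arrays of 1 genotype or both. Differences, standard errors and two-sided p come from limma 3.58.1 (lmFit and eBayes, R 4.3.3), Benjamini-Hochberg adjusted over all tested probes, with 0.05 as the threshold. The number of arrays limits the precision.

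Platform annotation gave 21615 probes 1 gene symbol, 681 several and 12671 none; 21487 were matched to RefSeq for current names. A gene stands for its tested probe with the highest mean. Other probes are given for the 10 KLF genes, Sp1 and the genes most like Klf3. In the lists, second probes of Pdgfra (-0.70 against 0.93) and Itch (-0.54 against 0.03) differed the other way between genotypes. A second Fbxo32 probe was not above background on any array. Named are the 10 KLF genes with every probe, Ing1, up to 3 genes per list past the threshold (lowest p first, or 2 where none passed), and the 5 genes most like Klf3. The members and lists were chosen with earlier results of these data known. A fit on simulated data was checked first. Cultures come from separate embryos, per the labels. Probe sequences were not used here, so how far a probe separates KLF relatives was not checked. Alternatives are given in the closing section.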

Additional observations from a re-analysis of the deposited data

How the results depend on the processing

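Directions of Klf2, Klf4, Klf5, Klf7, Klf13 and the NM_010638 probe of Klf9 were the same under all 19 alternatives run for each. Calls were not. Several alternatives left the difference of these probes unchanged, so the direction there was fixed in advance. These were the series value table, the floors of 0.01 and 1.14, both changes of the flag filter, robust fitting and the methods' t-test. The mean of a gene's probes likewise left all of them but Klf9 unchanged. Klf5 passed in 10 of 19. Among them were normexp, quantile, cyclic loess, a good flag on all arrays, robust fitting and the mean of a gene's probes. The series value table is among the 10 too, but it holds the values of the main fit, so that pass was fixed in advance. Klf5 has 1 probe, so the mean of a gene's probes left its own signals unchanged. Klf5 also met the methods' t-test without adjustment at a ratio over 2 or under 0.5. KLF genes past the threshold, Klf3 left out, numbered 1, and 0 with a floor of 0.01, 0 with a floor of 1.14, 0 without the flag filter and 0 by the methods' t-test after Benjamini-Hochberg (4 of the 8 at an unadjusted p under 0.05 in limma), but 4 with array weights and 5 with the culture name's leading letter as a random block. That block's estimated correlation was -0.886, and no letter holds both genotypes. With 1 array left out the number was 0, or 2 without H3. With Klf3 counted too, which the choice of the set fixes and which supports nothing, these numbers are 2, then 0 in the same 4 settings, 5, 6 and 0 to 3. Genes of the related lists past the threshold numbered 9, and 4 with normexp, 4 with the floor of 0.01, 2 with the floor of 1.14, 0 without the filter, 31 with array weights, 60 with the letter block and 0 by the methods' t-test after adjustment; with 1 array left out, 0 without B1 to 25 without H3. Of all probes 1286 passed, 75.2% of them higher, and 576 with normexp, 739 with quantile (60.8% higher), 749 with cyclic loess, 275 and 191 with the floors of 0.01 and 1.14, 20 without the filter, 4720 with array weights, 12901 with the letter block and 7 by the methods' t-test after adjustment; with 1 array left out, 5 without B1 to 2726 without H3. The cause of these changes was not tested. Without the filter more probes were tested, 34862, and the standard errors moved too. That of Klf5 went from 0.244 to 0.290 and that of Klf7 from 0.173 to 0.150. Signs turned for 3 small differences: Klf6 with quantile (-0.0101; left-out arrays -0.0279 to 0.258), Klf9's AI467095 probe with normexp (-0.0589), quantile (-0.113), cyclic loess (-0.0690) and the letter block (-0.130; left-out arrays -0.0846 to 0.175), and Klf10 with the letter block (-0.0625; left-out arrays -0.0868 to 0.278). No paired analysis was possible because the genotypes share only 1 culture number. A slide or scan block was not run, since each slide holds 1 array. Signal over background limits Klf15, Klf8, the second Klf13 probe, Ccl5 and Id4.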
